A study of Rattus norvegicus with 158 samples.

Results

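Oxybutynin in rat thigh muscle was examined in 6 arrays, 3 taken at 3 d and 3 at 5 d, in a series that held 152 other arrays. They were chosen by their source label, which names Oxybutynin, and were set against the 18 arrays whose label names Water alone, 9 at 3 d and 9 at 5 d. Each array held the labelled transcripts of one male Sprague-Dawley rat, bought at 6 to 8 weeks of age and dosed daily by oral gavage. The treated rats received 230 mg/kg of Oxybutynin in Water, and the controls received the Water vehicle with no compound. No control shared a study code with the Oxybutynin rats, so the study and the compound cannot be told apart. The series profiled 21 compounds in this tissue and is described as biological triplicates, so p-values here reflect how animals differ, with the technical error of a single array each. The controls carried 8 study codes and the treated rats all shared the same code. Differences between studies therefore enter the spread of the controls and not that of the treated rats.

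Oxybutynin is an antimuscarinic drug used against an overactive bladder. It blocks the G protein-coupled muscarinic receptors through which acetylcholine contracts smooth muscle and drives glands, whereas skeletal muscle is commanded through a different receptor, the nicotinic ion channel at the motor end plate. Resting skeletal muscle divides very little, burns fatty acids between meals, and shifts toward glucose and lipid storage when insulin is high.

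The mean level of 14 skeletal muscle markers, on the log2 scale of the deposited values, lay between 12.98 and 13.12 in the Oxybutynin arrays and between 12.87 and 13.14 in the Water arrays. Some markers, such as Acta1 at 14.50 to 14.63 in Water, were near the highest value of these arrays, 14.68. Others varied more, such as Myh2, at 13.51 to 13.73 in the Oxybutynin arrays and 11.24 to 14.00 in Water. Batches, set from the RNA extraction dates in the labels, were unevenly spread. Batch C held 5 of the 6 Oxybutynin arrays and 5 of the 18 Water arrays, the remaining Oxybutynin array (3 d replicate 3) was the only Oxybutynin or Water array in its batch, and the remaining Water arrays lay in 3 other batches. Pairs of Oxybutynin arrays, all of the same study, correlated at 0.981 to 0.990 across genes, and pairs of Water arrays, from 8 study codes, at 0.906 to 0.995.

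Transcripts of other organs were present at unequal levels. Alb, the albumin of liver, measured 7.90, 10.96 and 11.37 in the 3 d Oxybutynin arrays and 6.90, 10.81 and 9.65 in the 5 d arrays, against a lowest, median and highest Water level of 5.20, 6.24 and 10.85. The 3 d replicates 2 and 3 were above every Water array, the other 4 treated arrays lay within the Water range, and replicate 1 of each time was lowest. The Alb change of 2.80 on the log2 scale did not pass the test (limma, adjusted p = 0.097). The mean level of 6 liver markers ran from 5.32 to 6.71 in the Oxybutynin arrays and from 4.72 to 6.73 in the Water arrays. The mean of 11 fat cell markers was 9.57 in 3 d replicate 2 and 6.80 to 7.81 in the other Oxybutynin arrays, against 6.66 to 8.68 in Water. That array also carried Ucp1, the uncoupling protein of brown fat, at 11.14, where no other Oxybutynin or Water array exceeded 4.74. Prm1, a protamine of sperm, stood at 9.09 in 3 d replicate 1 and at 4.08 to 5.01 in the other Oxybutynin arrays, while the Water arrays spanned 3.78 to 13.46.

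**Figure D1:**
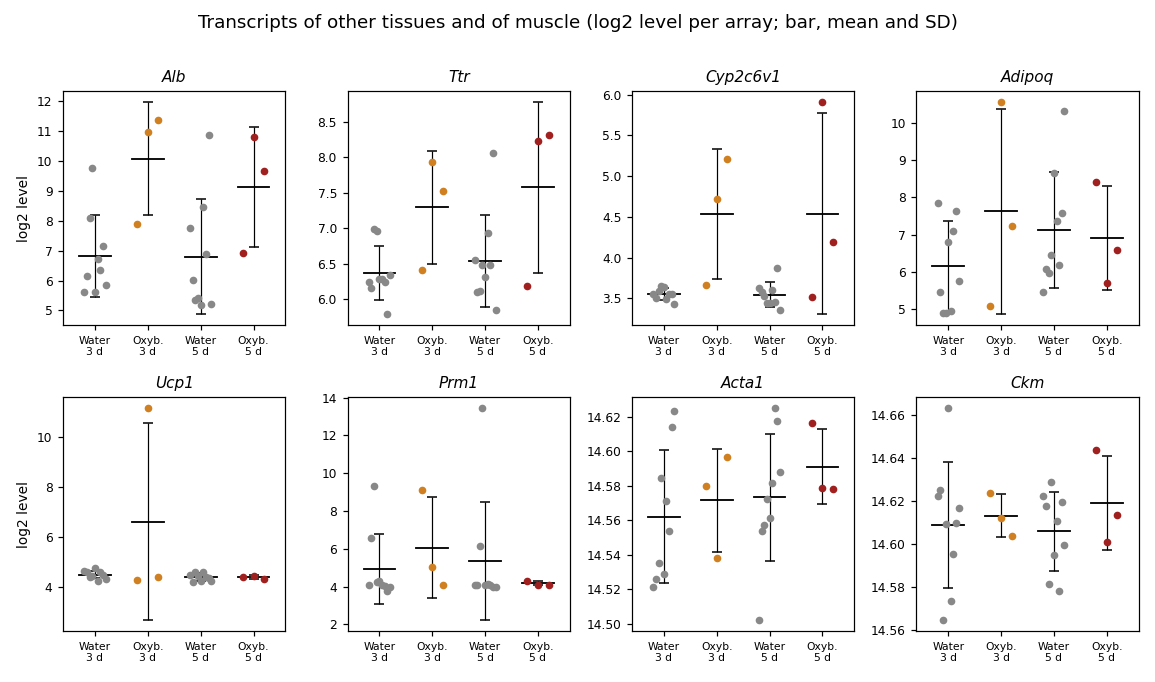
Log2 level per array (y axis) of liver (Alb, Ttr, Cyp2c6v1), fat (Adipoq, Ucp1), sperm (Prm1) and muscle (Acta1, Ckm) transcripts in the Water and Oxybutynin groups at 3 d and 5 d; each point is 1 array, and the bar and whiskers give the mean and SD. Ucp1 reached 11.14 in a single Oxybutynin array, and the muscle transcript Acta1 lay between 14.50 and 14.63 in every array.

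With time as a covariate, 12 of 14217 genes met the call, an adjusted p no higher than 0.01 with at least a 1.5-fold change, which is 0.0844% of those tested (limma). The called genes were 6 that rose and 6 that fell (0.0422% of genes each way). The rises were in lipid control, detoxification and amino acid breakdown (Srebf1, Gstm2, Selenbp1, Adhfe1, Bcat2 and Gcat), and the falls in fatty acid handling, cell division and the cytoskeleton (Ucp3, Top2a, Cdkn1c, Tuba4a, Acsl6 and Lmnb2). A looser limit of 0.05 gave 32 genes (0.225%), and 1559 genes had an unadjusted p under 0.05. Of the called genes, 2 had no overlap between the 6 treated and the 18 control arrays, Ucp3 and Bcat2, and 0.0633% of all genes showed such a separation. Within extraction batch C alone, with 5 arrays against 5, no gene was called while 1784 genes had an unadjusted p under 0.05, and all 12 genes kept their direction there with an unadjusted p under 0.05. With the Alb level of each array added as a covariate, likewise, 0 genes were called (1042 at an unadjusted p under 0.05), and all 12 kept their direction with an unadjusted p under 0.05. The 12 genes were chosen in these same arrays, so the kept directions are no separate support.

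**Figure D2:**
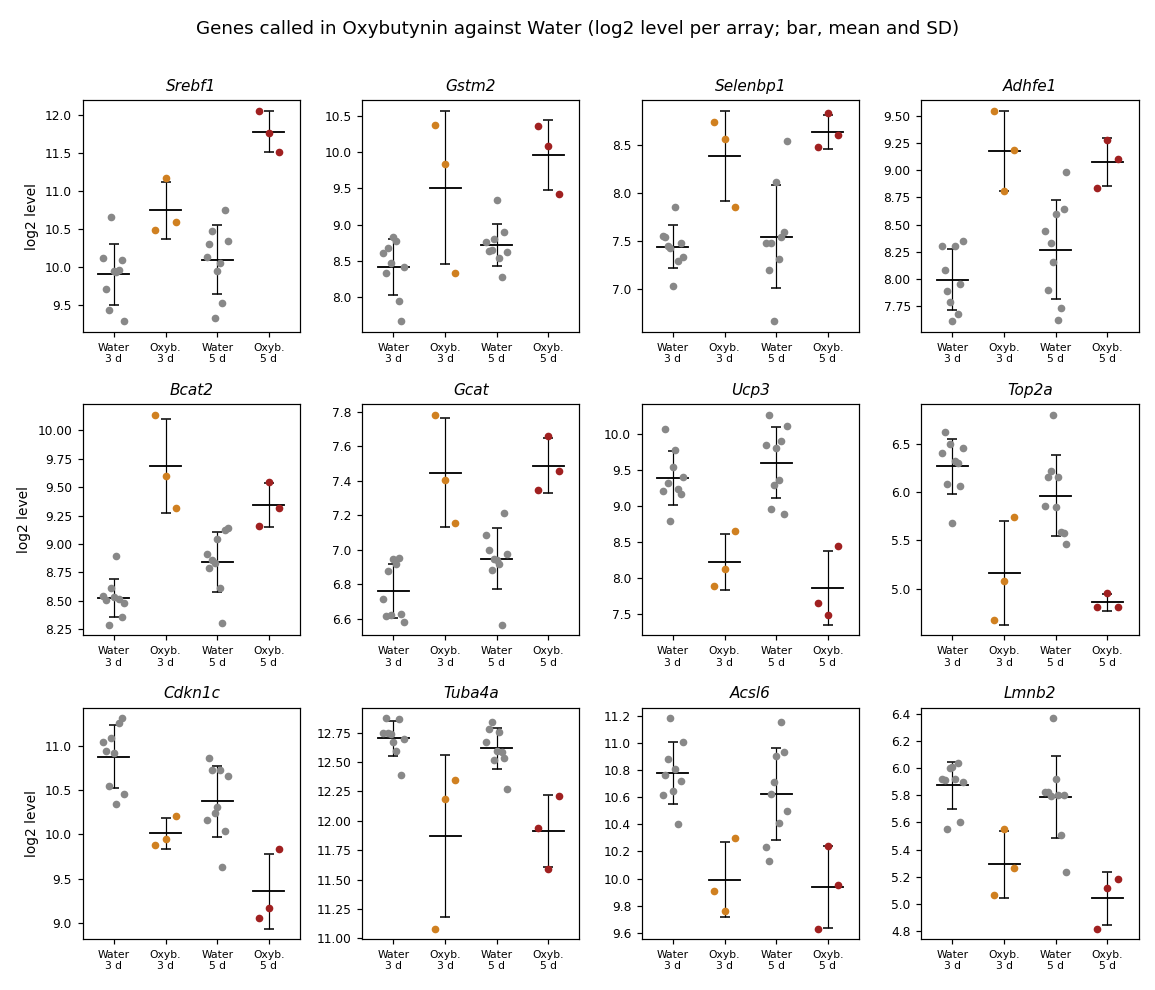
Log2 level per array (y axis) of the 12 called genes in the Water (grey) and Oxybutynin (orange and red) groups at 3 d and 5 d; each point is 1 array, and the bar and whiskers give the mean and SD. Ucp3 and Bcat2 show no overlap between treated and control arrays, and the other 10 genes do.

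Ucp3, a carrier of the inner mitochondrial membrane found mainly in skeletal muscle, had the largest fall among the called genes. Its level was 7.88, 8.11 and 8.65 in the 3 d Oxybutynin arrays and 7.65, 7.47 and 8.44 in the 5 d arrays, against a lowest, median and highest Water level of 8.78, 9.38 and 10.27. Every treated array lay below every control. The change was -1.46 ± 0.20 (SE; 2.75-fold lower, adjusted p = 0.00134). A second probe set for the gene changed by -1.51. The fall was -1.17 at 3 d and -1.75 at 5 d, of which the latter was called on its own (adjusted p = 0.00769). It remained between -1.34 and -1.60 when any one treated array was left out, and was called in each of those 6 fits. With extraction batch as a fixed block in a fit of all arrays it was -1.60 and not called (adjusted p = 0.0359).

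Ucp3 is one of 29 measured genes of fatty acid oxidation and fuel choice, of which it was the only one called, with 0 called higher. The list's median was 0.16 against 0.0050 over all genes tested. Of the 29 estimates, 21 were above 0 and 8 below. An unadjusted p under 0.05 (limma) was reached by 10 higher and 2 lower genes, and by 11% of all genes tested. Pdk4, the kinase that holds back the oxidation of pyruvate in the mitochondrion during fasting, changed by -1.20 ± 0.30 and did not pass (adjusted p = 0.0658). Ehhadh, a bifunctional enzyme of peroxisomal oxidation, was at 0.53 (adjusted p = 0.097), and Cpt1b, which admits fatty acids to the mitochondrion, at -0.08 (adjusted p = 0.913). G0s2, an inhibitor of the lipase that opens triglyceride stores, was at 11.20, 11.14 and 11.04 at 3 d and 11.40, 11.83 and 11.44 at 5 d. All of these exceeded the highest Water level of 10.73, the Water arrays having a lowest value of 8.16, apart from its group, and a median of 9.96. Its change of 1.39 ± 0.27 missed the stricter limit (adjusted p = 0.0146).

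Acsl6, which activates long-chain fatty acids by joining them to coenzyme A, read 9.91, 9.76 and 10.30 at 3 d and 9.63, 10.24 and 9.95 at 5 d. The Water arrays ran from 10.13 to 11.18, so that 2 of the treated arrays overlapped with them. The fall was -0.73 ± 0.13 (adjusted p = 0.00585), and 2 of the 6 fits without one treated array still called it. With the batch block it was -0.92 and not called (adjusted p = 0.0254). A second, dimmer probe set gave -0.42.

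Srebf1, the transcription factor that switches on genes of fatty acid synthesis, had the largest rise among the called genes. It measured 10.48, 11.18 and 10.59 in the 3 d Oxybutynin arrays and 12.06, 11.77 and 11.52 in the 5 d arrays, with Water arrays between 9.28 and 10.76 around a median of 10.01. The 5 d arrays were all above every control, and at 3 d only replicate 2 was. The change was 1.26 ± 0.20 (2.4-fold, adjusted p = 0.00241), made up of 0.84 at 3 d and 1.69 at 5 d, the latter called alone (adjusted p = 0.00741). The difference between the times did not pass the test (0.84 ± 0.37, adjusted p = 0.999). A second probe set gave 0.92.

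The genes that Srebf1 is known to control were not called with it. Of 20 measured genes of lipogenesis, 1 was called higher, Srebf1 itself, and 0 lower, and the list's median was 0.34. Fasn, fatty acid synthase, read 12.60 in 3 d replicate 2, the array with the high fat cell markers, and 7.32 to 10.59 in the other Oxybutynin arrays, against 7.45 to 11.16 in Water (change 0.97, adjusted p = 0.563). Without that array the list's median was 0.00086. The Srebf1 estimate stayed between 1.14 and 1.39 when any one treated array was left out, and 4 of those 6 fits called it. Sterol synthesis genes had 0 of 15 called and a median of -0.09.

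Gstm2, a mu-class transferase that couples glutathione to reactive compounds, measured 10.37, 9.83 and 8.33 at 3 d and 10.36, 10.09 and 9.42 at 5 d. Against a Water range of 7.67 to 9.34 with a median of 8.63, all treated arrays were higher except 3 d replicate 3, which sat below the control median. Its rise was 1.16 ± 0.21 (2.24-fold, adjusted p = 0.00767). Both arrays with the least Alb had the highest Gstm2. It was called in 1 of the 6 fits that left out a treated array and in 7 of the 18 that left out a control. In the list of 20 oxidative stress genes driven by the factor Nrf2, Gstm2 was the 1 called higher, 0 were lower, and the median was 0.13. Srxn1, which repairs oxidised peroxiredoxins, changed by 0.76 ± 0.16 (adjusted p = 0.0294), and Nqo1, a quinone reductase, by 0.43 (adjusted p = 0.365).

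Selenbp1, a selenium-binding protein that oxidises methanethiol, was at 8.74, 8.56 and 7.86 at 3 d and 8.48, 8.83 and 8.60 at 5 d. The Water arrays spanned 6.67 to 8.54 with a median of 7.48, and 4 of the 6 treated arrays exceeded them. The rise was 1.02 ± 0.17 (adjusted p = 0.00515). Only 1 of the 6 fits without a treated array kept the call, the estimate staying between 0.95 and 1.14.

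The remaining rises were in mitochondrial enzymes of amino acid and hydroxy acid breakdown. Bcat2, the aminotransferase that begins the breakdown of branched-chain amino acids in muscle, read 10.14, 9.60 and 9.32 at 3 d and 9.16, 9.55 and 9.31 at 5 d. Water arrays reached from 8.29 to 9.14 around 8.61, so that all 6 treated arrays lay above them, the lowest at 9.16. The rise over both times was 0.83 ± 0.13 (1.78-fold, adjusted p = 0.00241) and was called in every fit that left out one array, but with the batch block it was 0.95 and not called (adjusted p = 0.0261). It was the single gene called at 3 d (1.16 ± 0.16, adjusted p = 0.00295), where 1 of 14217 genes, 0.00703%, passed and 0.0211% would have at an adjusted p of 0.05, and it was 0.49 at 5 d (adjusted p = 0.323).

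Gcat, the second enzyme of threonine breakdown to glycine, was 7.78, 7.40 and 7.16 at 3 d and 7.35, 7.66 and 7.46 at 5 d, against 6.57 to 7.22 in Water with a median of 6.92. All but 3 d replicate 3 were above the controls. With 0.61 ± 0.09 it was the smallest of the called rises (1.53-fold, adjusted p = 0.00134). Adhfe1, a transhydrogenase acting on hydroxybutyrate, measured 9.54, 8.81 and 9.18 at 3 d and 8.84, 9.28 and 9.10 at 5 d. Its Water levels went from 7.61 to 8.98 about a median of 8.12, which left 2 treated arrays within the range. The rise was 0.99 ± 0.16 (adjusted p = 0.00394), and it was called in 3 of the 6 fits without a treated array. A second probe set gave 0.56 (unadjusted p = 0.000377).

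Top2a, the topoisomerase that untangles chromosomes for division, measured 4.67, 5.07 and 5.74 in the 3 d Oxybutynin arrays and 4.81, 4.95 and 4.81 in the 5 d arrays, with Water arrays from 5.46 to 6.80 and a median of 6.16. All treated arrays but 3 d replicate 3 were below every control. The fall was -1.11 ± 0.16 (2.15-fold, adjusted p = 0.00134), made up of -1.10 at 3 d and -1.11 at 5 d, and it was called in all 6 fits without a treated array. A second, dimmer probe set gave -0.21 (unadjusted p = 0.0411). In bulk tissue, fewer cells of a type and less RNA per cell cannot be told apart.

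Of 33 measured cell cycle genes, Top2a was the 1 called lower and 0 were called higher, while 30 of the 33 estimates were below 0 and the list's median was -0.30. A further 5 reached an adjusted p under 0.05 with a fold over 1.5, short of the call. They were Prc1, which bundles microtubules at the division plane (-1.29, adjusted p = 0.0267), Mki67, a coat protein of dividing chromosomes (-1.07, adjusted p = 0.0405), Cdk1, the kinase that starts mitosis (-1.05, adjusted p = 0.0458), Racgap1, a regulator of the contractile ring (-0.86, adjusted p = 0.0146), and Ccnd1, the cyclin of early G1 (-0.68, adjusted p = 0.0342). Cdkn3, a phosphatase acting on cyclin-dependent kinases, had the lowest estimate with the widest error (-1.47 ± 0.47, adjusted p = 0.184). An unadjusted p under 0.05 (limma) was reached by 20 lower and 0 higher genes of the 33, and by 11% of all genes tested. Against the 8 other compounds given in Water, a contrast described below, the list's median was -0.02.

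Several of these genes were low in the same arrays. Mki67 was at 3.72, 3.79 and 5.22 at 3 d and 3.74, 3.72 and 4.02 at 5 d, against 4.33 to 6.41 in Water with a median of 5.06. Cdk1 was at 4.50, 5.02 and 6.61 at 3 d and 4.81, 4.55 and 4.96 at 5 d, against 5.42 to 7.11 with a median of 6.09. In both, 5 of the 6 treated arrays were below every control and 3 d replicate 3, the array from another extraction batch, was at or above the control median. Prc1 likewise read 6.47 in that array and 5.03 to 5.59 in the other 5, with Water arrays at 6.16 to 8.92, the highest standing apart from the rest of its group. That array also had the widest Gapdh 3' minus 5' difference, a sign of RNA quality, at 0.307 on the log2 scale against at most 0.273 in Water, and 5 d replicate 2 exceeded the Water arrays as well. With this difference as a covariate, 1 of the 33 genes was called lower and the list's median was -0.33. Without 3 d replicate 3, 5 of the 33 genes were called lower and the list's median was -0.44, where 21 genes in all (0.148%) were called, 0.0914% lower. With extraction batch as a fixed block in a fit of all arrays, 9 of the 33 were called lower and 0 higher, where 26 genes in all (0.183%) were called, 0.113% lower and 0.0703% higher. Within batch C the list had 0 called, 32 of 33 estimates below 0 and a median of -0.37. The mean level of 8 red blood cell markers was 7.05 in 3 d replicate 1 and 6.96, 6.97 and 6.95 in the 5 d arrays, below the lowest Water mean of 7.07, and 7.26 in the other 2 treated arrays. Alas2, the first enzyme of heme synthesis in red cells, was below every control in those 4 arrays, at 5.99 to 6.45 against at least 6.59, and Hbb, a globin, in the 5 d arrays alone. These 4 were among the 5 arrays with low Mki67 and Cdk1, and the part of the red cell markers in the result was not tested.

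**Figure D3:**
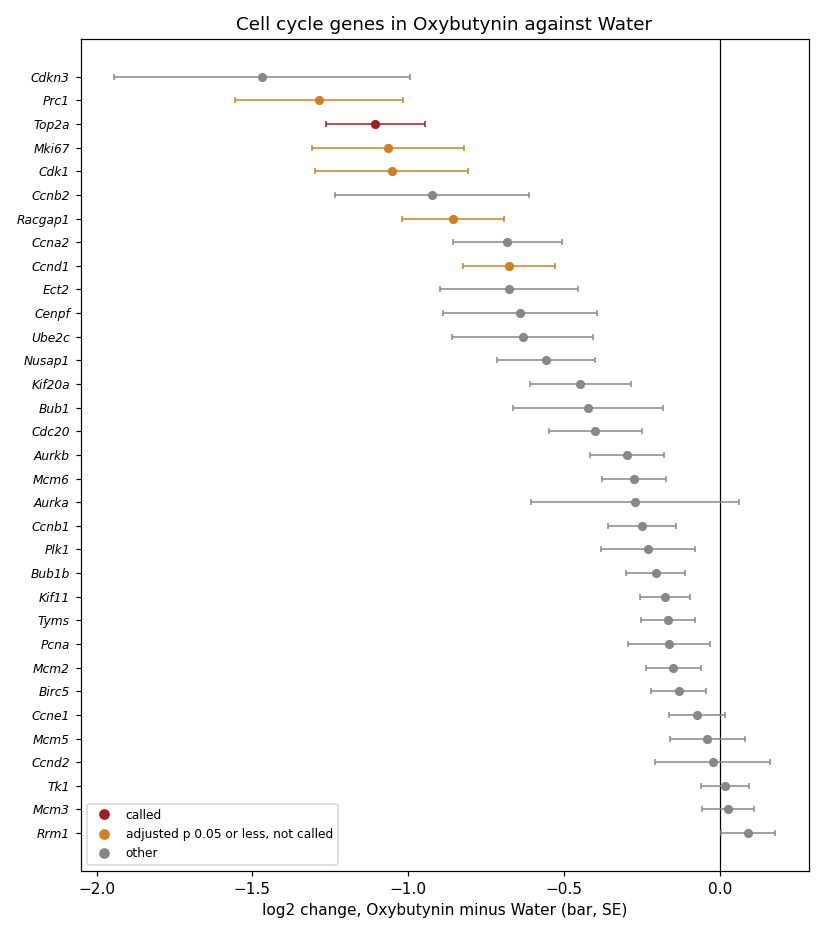
Log2 change, Oxybutynin minus Water (x axis; bar, SE), of the 33 measured cell cycle genes (y axis), with the called gene in red and those at an adjusted p of 0.05 or less in orange. Of the 33 points, 30 lie to the left of 0, and Top2a alone is called.

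The promoters of Top2a, Prc1, Mki67 and Cdk1 are shown, picked as cell cycle genes that were low in the same 5 arrays. Tuba4a and Myf6 were also below every control in those 5 arrays alone, and their promoters are not shown. Genes of the G2 and M phases are known in human and mouse to carry CCAAT boxes and, near the start site, an element called CHR, spelled TTTGAA. The sequences below are the 250 bases before the annotated start in RefSeq, build GRCr8, read 5′ to 3′ on the strand of the gene. Capitals mark each CCAAT and each TTTGAA found on either strand, which read ATTGG and TTCAAA on the opposite one.
Top2a: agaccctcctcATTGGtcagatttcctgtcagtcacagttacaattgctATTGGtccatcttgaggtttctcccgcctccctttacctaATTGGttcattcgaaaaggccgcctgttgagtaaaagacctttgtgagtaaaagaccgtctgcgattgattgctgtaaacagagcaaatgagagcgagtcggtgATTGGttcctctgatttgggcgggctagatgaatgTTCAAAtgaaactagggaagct
Prc1: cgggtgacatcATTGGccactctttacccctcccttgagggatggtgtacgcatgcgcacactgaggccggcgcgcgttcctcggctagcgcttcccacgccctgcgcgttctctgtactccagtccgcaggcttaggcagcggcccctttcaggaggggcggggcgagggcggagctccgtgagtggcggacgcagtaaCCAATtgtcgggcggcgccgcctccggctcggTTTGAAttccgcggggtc
Mki67: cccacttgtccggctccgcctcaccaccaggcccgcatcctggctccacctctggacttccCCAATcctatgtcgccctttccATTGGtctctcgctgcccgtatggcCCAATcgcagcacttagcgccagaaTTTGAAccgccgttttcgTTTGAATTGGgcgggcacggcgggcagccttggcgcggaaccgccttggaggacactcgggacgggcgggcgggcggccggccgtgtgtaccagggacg
Cdk1: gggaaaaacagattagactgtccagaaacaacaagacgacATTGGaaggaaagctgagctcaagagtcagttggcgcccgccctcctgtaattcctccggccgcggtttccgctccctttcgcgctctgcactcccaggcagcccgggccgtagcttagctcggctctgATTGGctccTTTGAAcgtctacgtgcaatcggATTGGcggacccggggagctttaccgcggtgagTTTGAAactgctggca

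The Top2a window lies at chr10:84473094-84473343 on the minus strand, that of Prc1 at chr1:143659231-143659480 on the plus strand, that of Mki67 at chr1:199952594-199952843 on the minus strand and that of Cdk1 at chr20:19265043-19265292 on the plus strand. Top2a held 4 CCAAT and 1 TTTGAA, the latter beginning 22 bases before the start on the opposite strand. Prc1 held 2 CCAAT and 1 TTTGAA, which began 18 bases before the start. Cdk1 held 3 CCAAT and 2 TTTGAA, the nearer 16 bases before the start, and Mki67 held 4 and 2, its last TTTGAA beginning at 99 bases and sharing 1 base with a CCAAT on the other strand. Among 33469 promoter windows of the same length, 34% held a CCAAT, 16.2% a TTTGAA and 5.87% both. An entry was found for 27 of the 33 cell cycle genes, and 9 of these held both in one window. Of the 12 called genes 9 had an entry, and 2 of these held both. A gene was counted if any of its windows held both, so these counts and the shares of windows are unlike measures. A match in letters is a description and not a measured site.

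Cdkn1c, the p57 inhibitor of cyclin-dependent kinases, also fell. It read 9.88, 9.95 and 10.21 at 3 d and 9.06, 9.17 and 9.83 at 5 d, whereas Water went from 9.64 to 11.31 with a median of 10.69. The 3 d arrays were below all 3 d controls and 4 of the 6 treated arrays overlapped with the 18 controls as a whole. The fall was -0.94 ± 0.16 (adjusted p = 0.00515) and was called in 2 of 6 fits without a treated array.

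Lmnb2, a lamin of the nuclear envelope, was at 5.07, 5.56 and 5.26 at 3 d and 4.82, 5.12 and 5.18 at 5 d, against 5.24 to 6.37 in Water with a median of 5.86. Of the treated arrays, 3 d replicates 2 and 3 were within the control range. The fall was -0.66 ± 0.11 (adjusted p = 0.004), called in 2 of 6 fits without a treated array. Tuba4a, an alpha-tubulin of microtubules, measured 11.08, 12.19 and 12.35 at 3 d and 11.94, 11.59 and 12.21 at 5 d, with Water arrays from 12.27 to 12.87 about 12.68. Only 3 d replicate 3 overlapped, and replicate 1 of that time was the lowest. Its fall of -0.77 ± 0.12 (adjusted p = 0.00331) was -0.59 without that lowest array, and 5 of the 6 such fits called it. With the batch block it was -0.81 and not called (adjusted p = 0.0612).

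Myf6, a transcription factor of mature muscle fibres, changed by -0.55 ± 0.09 with an adjusted p of 0.00241, and was not called because its fold of 1.46 was under the limit. Apln, the peptide apelin that muscle releases, changed by -1.04 ± 0.23 (adjusted p = 0.0342) and read 6.02 to 7.57 in the treated arrays against 6.56 to 8.87 in Water, whose lowest 3 d array stood apart. Of 18 growth and myogenesis genes 0 were called and the median was -0.18. Of 39 extracellular matrix genes 0 were called either way, although 33 of 39 estimates were below 0 and the median was -0.35, at -0.21 for 3 d and -0.51 for 5 d. An unadjusted p under 0.05 (limma) was reached by 19 lower and 0 higher matrix genes, and by 11% of all genes tested. Against the 8 other compounds given in Water the matrix median was 0.02. Col6a2 and Col6a3, chains of the microfibrillar collagen around fibres, gave -0.79 (adjusted p = 0.097) and -0.51 (adjusted p = 0.0997). Their second probe sets gave -0.04 and -1.08.

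The receptors the drug is known to block were not called. Among the muscarinic receptor genes, Chrm1, Chrm2, Chrm3, Chrm4 and Chrm5, all levels in all arrays lay between 4.04 and 5.71, and the changes lay between -0.10 and 0.11 with adjusted p from 0.75 to 0.946. No level exceeded the array medians, which lay between 5.71 and 5.78, so the signal was low and a change could have been missed. Of 23 measured genes of acetylcholine reception and signalling, 0 were called in either direction and the median was 0.02. Chrna1, the ligand-binding subunit of the muscle nicotinic receptor, changed by 0.44 ± 0.23 (adjusted p = 0.513) and Chrnb1 by -0.37 ± 0.12 (adjusted p = 0.207). Chrne, the adult subunit, which stood at 9.997 in 1 Water array and at 7.70 or less in the others of that time, changed by 0.36 ± 0.41 (adjusted p = 0.86), and Chrng, the fetal subunit that returns on denervation, by -0.09 ± 0.08 (adjusted p = 0.764). The denervation list had 0 of 12 called and a median of -0.04, and the atrophy list 0 of 17 and 0.06.

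At 5 d, 4 genes of 14217, 0.0281%, were called, of which Coq10b, Srebf1 and Gem rose (0.0211% higher) and Ucp3 fell. The limit of 0.05 gave 0.0563%. Coq10b, a mitochondrial protein that binds coenzyme Q, read 7.71, 7.73 and 7.11 at 3 d, and 10.01, 9.09 and 9.10 at 5 d. The Water arrays at all times were between 7.12 and 8.17 with a median of 7.70, so the 5 d arrays stood above all controls, while at 3 d replicates 1 and 2 were within the range and replicate 3 just under it. The change was 1.79 ± 0.18 at 5 d (3.45-fold, adjusted p = 1.37e-05) and -0.25 at 3 d (adjusted p = 1). The difference between the times, 2.03 ± 0.26, was called (adjusted p = 0.000667), as the 1 gene of 14217 (0.00703%) to pass that test. It was called in each of the 24 fits that left out one array, and was not called with batch as a block, within batch C, or with the spread shared by all arrays of the series.

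Gem, a small GTPase that restrains calcium channels, read 5.23, 5.14 and 5.49 at 3 d, and 6.66, 6.78 and 6.75 at 5 d. The highest Water array was at 6.27 and the median at 5.46, so only the 5 d arrays were above the controls. The change at 5 d was 1.15 ± 0.18 (adjusted p = 0.00741) and at 3 d -0.02. The difference between the times missed the threshold (1.17 ± 0.25, adjusted p = 0.563).

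Immediate early genes, which respond within minutes to stimulation of a cell, had 0 of 26 called over both times, at 3 d or at 5 d. Their median was -0.07 at 3 d and 0.90 at 5 d, where that of all genes tested was 0.010 and 0.0025. At 5 d, Nr4a3, an orphan nuclear receptor, was at 2.88 (adjusted p = 0.173), Atf3 at 2.40 (adjusted p = 0.269) and Fos, a partner in the AP-1 factor, at 2.18 (adjusted p = 0.384). Atf3, a stress-induced transcription factor, read 6.71, 9.29 and 8.12 at 3 d and 10.28, 10.11 and 8.73 at 5 d, against 5.91 to 10.07 in Water with a median of 7.08. Of the 5 d arrays, 2 were above all controls, and the change over both times of 1.49 ± 0.53 did not pass (adjusted p = 0.246). Klf10, induced early by growth factor signals, read 8.77, 8.25 and 8.83 at 3 d and 9.63, 9.49 and 9.82 at 5 d, with a Water range of 7.42, from an array apart from its group, to 9.28. Its 5 d arrays were likewise above every control, and its change over both times was 0.63 ± 0.19 (adjusted p = 0.154). Maff, a small Maf factor, gave 0.47 ± 0.15 (adjusted p = 0.18), with all 5 d arrays above the highest Water level of 4.81.

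**Figure D4:**
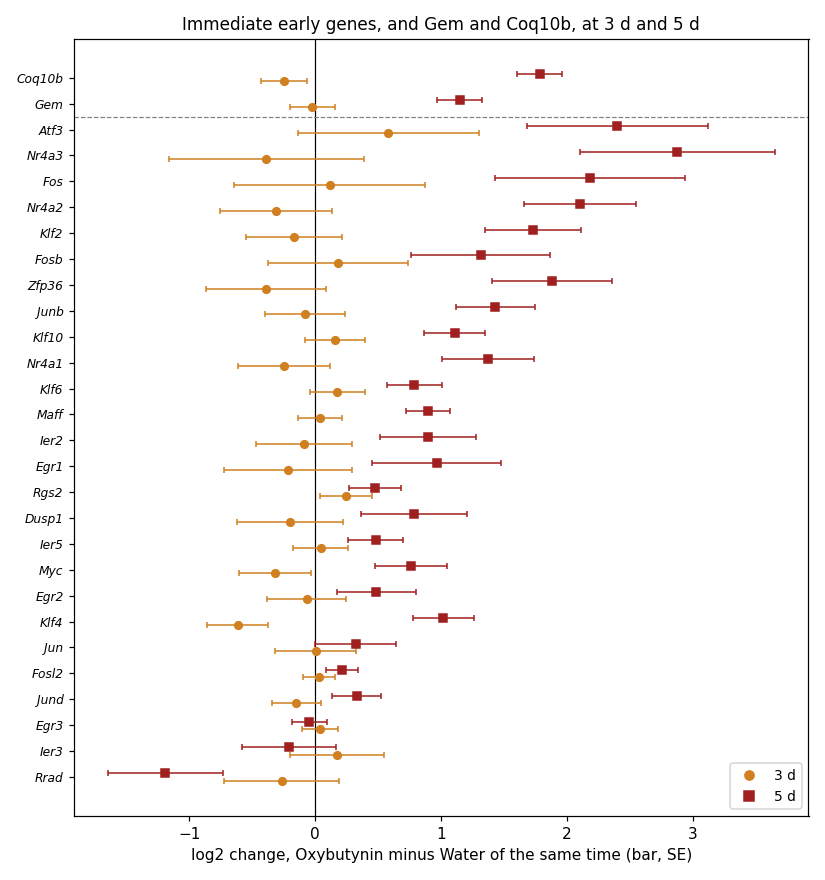
Log2 change, Oxybutynin minus Water of the same time (x axis; bar, SE), for 26 immediate early genes and, above the dashed line, Gem and Coq10b (y axis), at 3 d (circles) and 5 d (squares). Most 5 d points lie to the right of their 3 d points, and Coq10b is at -0.25 and 1.79.

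Of 17 clock genes, 0 were called and the median was 0.11. Bmal1, the activator of the clock, changed by -0.45 ± 0.11 (adjusted p = 0.0495) and Nr1d2, one of its repressors, by 0.61 ± 0.15 (adjusted p = 0.0557). Further probe sets of Nr1d2 gave 0.10 and 0.36. In the 8 other compounds given in Water, against the same controls, Bmal1 ran from -1.80 to -0.23 and Nr1d2 from 0.64 to 1.28. Bmal1 was called lower in 6 of these 8 and Nr1d2 higher in 7. Genes of the glucocorticoid and fasting response had 0 of 22 called and a median of 0.22. Glul, which makes glutamine, was at 0.51 ± 0.13 (adjusted p = 0.0812).

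No gene was called in the lists of contraction (0 of 27, median 0.0028), oxidative phosphorylation (0 of 36, median 0.03), glycolysis (0 of 18, median -0.06), proteasome (0 of 30, median 0.0023), interferon response (0 of 18, median -0.05), p53 targets (0 of 13, median -0.01) or the ATF4 and heat shock response (0 of 20, median -0.03). Markers of fat, tendon, red blood cells, endothelium, smooth muscle, leukocytes, nerve, fibroblasts, liver and kidney held no called gene either. Of the 9 liver and kidney markers, however, 5 were higher and 0 lower at an unadjusted p under 0.05 (limma). Their median was 0.43, and 11% of all genes had such a p. The 17 genes of drug metabolism (median 0.05) also held no called gene, and include Cyp3a23-3a1, a cytochrome P450 of liver. That gene and Cyp2c6v1, another, gave 0.98 (adjusted p = 0.0239) and 0.99 (adjusted p = 0.0273). Cyp3a23-3a1 was highest in 5 d replicate 2, at 6.24, and 3.80 in 5 d replicate 1, which had the least Alb, and Cyp2c6v1 was 5.91 and 3.51 in the same arrays. With the Alb level as a covariate both estimates were lower, at 0.63 and 0.53.

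Oxybutynin was next set against the 8 other compounds given in Water, which comprised 45 arrays. The 18 Water arrays had no part in this contrast, but they were in the fit and so in its spread. Doses differed between the compounds. In that test 7 of 14217 genes, 0.0492%, were called, of which 6 were higher with Oxybutynin (0.0422%) and 1, Ucp3, was lower (-1.61 ± 0.32, adjusted p = 0.00975). G0s2 showed the largest difference among these, 2.02 ± 0.41 (4.06-fold, adjusted p = 0.00975). Tppp, which promotes tubulin polymerisation, differed by 0.89 ± 0.15 (adjusted p = 0.00143), and Cry1, a repressor of the clock, by 0.66 ± 0.13 (adjusted p = 0.00975). The others were Arhgef15 (0.67), Cyyr1 (0.62) and D430041D05Rikl (0.82), of which the last had 3 further probe sets that gave -0.05, -0.02 and -0.0048 against Water. For Tppp, Cry1, Arhgef15 and Cyyr1 the Oxybutynin arrays lay within the range of the Water arrays, with changes of 0.18, 0.10, 0.22 and 0.24. Against Water, the 8 other compounds ran from -1.19 to -0.36 for Tppp and from -0.83 to -0.17 for Cry1. They ran from -0.80 to -0.04 for Arhgef15, -0.77 to 0.04 for Cyyr1 and -0.95 to 0.50 for D430041D05Rikl. Tppp and Cry1 were each called lower in 3 of the 8, Arhgef15 and D430041D05Rikl each in 2, and Cyyr1 in 1.

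Each compound's own change against the same 18 Water arrays is given next, and all of these comparisons share those controls. Ucp3, at -1.46 with Oxybutynin, ran from -0.83 (Dicyclomine) to 1.33 (Gabapentin) in the 8 others. G0s2, at 1.39, ran from -1.99 (Dicyclomine) to 0.46 (Dexchlorpheniramine). For Srebf1, at 1.26, the others ran from -0.17 to 0.94. The direct test left the remaining called genes of Oxybutynin short of the limit, such as Srebf1 at 0.80 ± 0.23 (adjusted p = 0.0924), Gstm2 at 0.26 ± 0.26 (adjusted p = 0.847) and Bcat2 at 0.19 ± 0.18 (adjusted p = 0.839). In the other compounds Gstm2 ran from -0.16 to 1.95, Bcat2 from 0.0037 to 1.31, Top2a from -1.35 to -0.45 and Tuba4a from -1.38 to -0.15. Prc1 ran from -1.48 to -0.49, Mki67 from -1.25 to -0.37 and Cdk1 from -1.39 to -0.45. Selenbp1 ran from -0.38 to 1.23, Adhfe1 from 0.19 to 1.62 and Gcat from 0.0044 to 0.53. Cdkn1c ran from -1.34 to 0.07, Acsl6 from -1.44 to 0.01 and Lmnb2 from -0.81 to -0.13. Top2a and Cdk1 were each called lower in 6 of the 8, and Prc1 and Mki67 each in 3. Tuba4a was called lower in 5, Cdkn1c in 3, and Acsl6 and Lmnb2 each in 2. Adhfe1 and Bcat2 were each called higher in 4, Gstm2 and Selenbp1 each in 3, Srebf1 in 2 and Gcat in 0. Over all genes Oxybutynin had 12 calls against Water, and the others between 0 (Dexchlorpheniramine, 47 mg/kg) and 802 (Dicyclomine, 645 mg/kg). The shares called were 2.48% for Etidronate, 0.809% for Losartan, 0.682% for Paroxetine, 0.457% for Trimethadione, 0.429% for Gabapentin and 0.317% for Phenytoin.

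**Figure D5:**
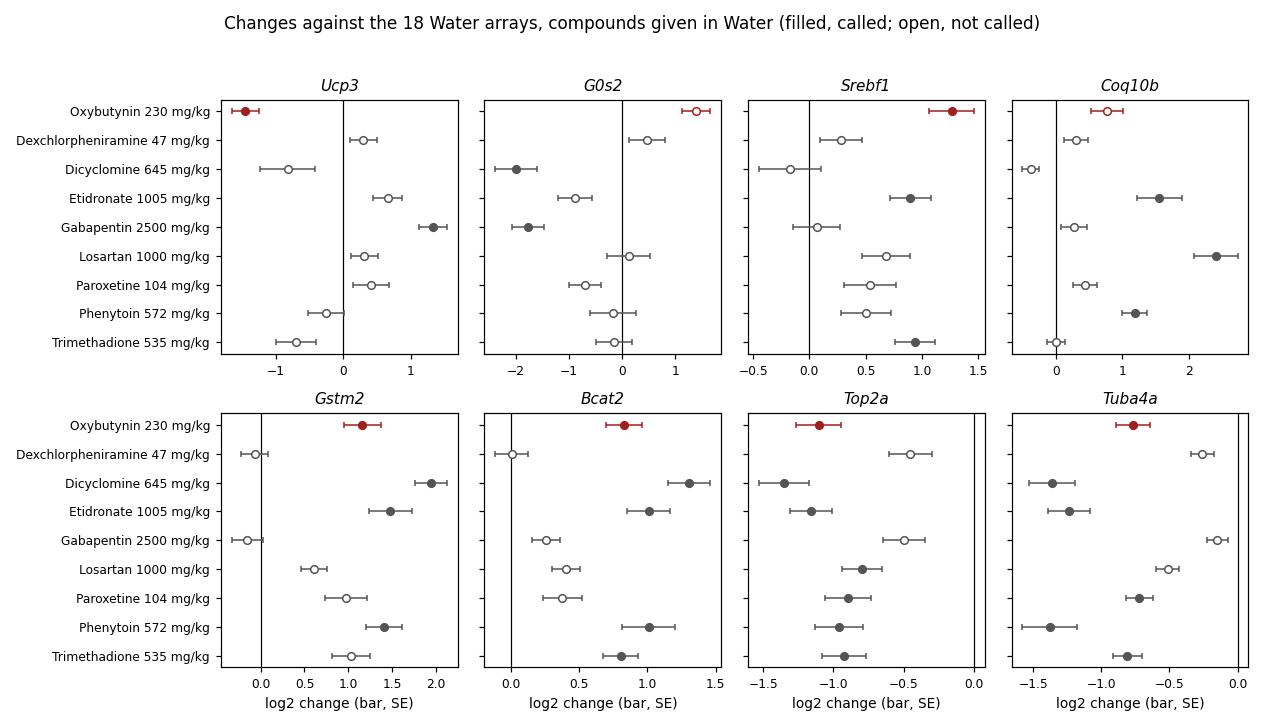
Log2 change against the 18 Water arrays (x axis; bar, SE) for 8 genes in the 9 compounds given in Water, with the dose of each (y axis); filled points were called and open ones were not. Oxybutynin is lowest for Ucp3 and highest for G0s2 and Srebf1, and lies within the range of the others for Coq10b, Gstm2, Bcat2, Top2a and Tuba4a.

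Dicyclomine is the other antimuscarinic drug of the series, with 4 arrays at 645 mg/kg against 6 at 230 mg/kg for Oxybutynin, so that the values stand side by side without a comparison. Top2a changed by -1.35 with Dicyclomine and by -1.11 with Oxybutynin. Gstm2 changed by 1.95 and 1.16, and Bcat2 by 1.31 and 0.83, in the same order. Srebf1 was at -0.17 and 1.26, and G0s2 at -1.99 and 1.39. Dicyclomine against Water gave calls for 5.64% of genes, and Oxybutynin for 0.0844%.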

How the data were processed

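PolyA RNA of thigh muscle had been hybridised to Affymetrix RG230_2.0 arrays, with 1 array per animal. The deposited values are log2 levels that the authors had obtained by RMA, according to the submitters' processing notes. The RMA version is not given in the sources used here. The study's methods name frozen RMA for its own work. RMA understates changes at low signal, and no detection calls were given. Array medians lay between 5.71 and 5.78. The number of arrays limits the precision.

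The table held 31099 probe sets, including 57 array controls. A single gene symbol belonged to 20826 of them, several symbols to 436, and the other 9780 were unnamed here. Each of 14217 genes was represented by its probe set with the highest mean over all arrays, and 14167 matched the rat gene table by ID. Groups came from the labels of compound and time. Limma 3.58.1 in R 4.3.3 was fitted to the 6 Oxybutynin and 18 Water arrays with time as a covariate. It was also fitted to the 4 groups of compound and time. For the contrast with the other compounds, the fit held all arrays of compounds given in Water and the 18 Water arrays. Calls needed an adjusted p (Benjamini-Hochberg, all genes) no higher than 0.01 and a change of at least 1.5-fold, the thresholds in the study's methods. Figures were drawn with matplotlib 3.10.9 in Python 3.11.15. The fits were tested on simulated data.

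Named genes were the called ones, then up to 10 in each direction by adjusted p of 0.05 and size, the acetylcholine receptors, and called or lowest-p members of each gene list. Some further list members and markers were named after their values were seen. The members and lists were chosen with earlier results of these data known. Alternatives were batch and hybridisation period as blocks or alone, another spread, test, normalization, probe set rule, threshold or covariate, and leaving out each array. The fits with Alb and Adipoq as covariates were chosen after seeing the data.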

Additional observations from a re-analysis of the deposited data

Results flagged for a closer look

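Among 170 tests for a single array standing apart from its group, 13 groups had one, and chance gives about 1 in 20. All 13 were Water arrays, since groups of 3 were not tested. At 3 d the lowest array stood apart for G0s2 (8.16, next 9.69), Klf10 (7.42), Apln (6.56), Musk (4.21) and Srebf2 (8.28), and the highest for Glul (11.94) and S100a9 (5.44). At 5 d the lowest stood apart for Fbp2 (9.70) and Actn3 (13.99), and the highest for Prc1 (8.92, next 6.83), Chrne (9.997), Pparg (6.83) and Ttr (8.05). Prc1 and Chrne were high in the same array, Water 5 d replicate 4.

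The change of Coq10b differed between 5 d and 3 d by 2.03 ± 0.26 on the log2 scale (limma, adjusted p = 0.000667). Among 10216 probe sets without 1 named gene, which the comparisons did not use, 2 were called. One, 1389408_at, had a mean of 5.67 with Oxybutynin and 6.84 with Water (-1.17 ± 0.20, adjusted p = 0.0093), and the other, 1392712_at, 8.04 and 7.17 (0.87 ± 0.15, adjusted p = 0.00832).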

How the results depend on the processing

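All 12 called genes kept their direction with an unadjusted p under 0.05 in each alternative that tested them (10 of 10 where only genes above the median level were tested). The alternatives refit all or some of the arrays that chose the 12 genes, so this was likely beforehand and is no separate support. The count of calls moved more. Against Water, 12 genes became 26 with extraction batch as a block in a fit of all arrays (8 of them shared, with Ucp3, Bcat2, Tuba4a and Acsl6 lost), 19 with the first hybridisation period alone, 32 at an adjusted p of 0.05, and 0 within batch C, with the Alb covariate or with the Alb and Adipoq covariates. Leaving out 1 array gave 5 to 21, with 7 without Oxybutynin 3 d replicate 1, 5 and 6 without 5 d replicates 2 and 3, 21 without 3 d replicate 3, and 19 without Water 5 d replicate 4. The causes were not tested.

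At 3 d, 1 gene became 2 with the batch block, the period block, the first period alone or the spread of all arrays, 3 at 0.05, and 0 within batch C, by the methods' t-test or with either covariate set, and 0 to 4 without 1 array. At 5 d, 4 genes became 2 with the batch block or either covariate set, 1 with the first period alone, the methods' t-test or the Gapdh covariate, 7 over every probe set, 8 at 0.05 and 0 within batch C, and 1 to 7 without 1 array. The 1 gene of the difference between times became 0 with the batch block, within batch C or with the spread of all arrays.

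Against the other compounds, 7 genes became 2 without the time covariate, with the period block, by the methods' t-test, with trended robust variances or with median centring. They became 3 with the batch block or the mean of probe sets, 4 over every probe set, 1 with the spread of all arrays, the Gapdh covariate or both covariates, 0 with the first period alone or the Alb covariate, and 28 at 0.05, and 0 to 8 without 1 array.

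Of the values of single genes under the alternatives, 3469 kept their side of the threshold, 107 lost the call, 31 gained it and 19 changed sign, none of them called. All 107 losses were of the 12 called genes, and most values that kept their side were of genes not called. Gstm2, for one, kept its call in 12 of the 19 alternatives other than leaving out 1 array. No paired analysis was possible because replicate numbers only follow the order of deposit.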
